A study of Homo sapiens with 6 samples.

Results

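The cholesterol synthesis genes and the regulators of the SREBP2 axis were examined as a set of 28 genes, listed by name for their roles in the pathway. All 28 were found among the 60683 genes of the count table, and all 28 were among the 15321 genes with enough reads to be tested. Poly(A) RNA was sequenced from RCC4, a line of human kidney cancer cells of the clear cell type in which VHL is not functional, in 2 groups: 3 samples of the ATF4 knockout and 3 samples of the parental line. ATF4 is the transcription factor of the integrated stress response. Neither the way ATF4 was disrupted nor whether the knockout was 1 clone or a pool is stated in the labels, and nothing says that the replicates came from separate cultures, so the p-values reflect no more than how far these samples differed among themselves, and that spread may be technical. The set does not hold every enzyme of the route, and the others are not analysed here.

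Cholesterol is built from acetyl-CoA in stages: the mevalonate arm makes isoprenoid units, the squalene arm joins and cyclizes them to lanosterol, and the sterol arm trims lanosterol to cholesterol. When sterols in the endoplasmic reticulum run low, SCAP escorts SREBP2 to the Golgi, where proteases release the part that enters the nucleus and switches on the genes of the route, while INSIG proteins hold SCAP back when sterols are plentiful. Oxysterols, in turn, activate the LXR receptors, which promote sterol removal, and clear cell renal carcinomas are known for storing cholesteryl esters.

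The knockout libraries held 41002611, 45980253 and 46755358 counts and the parental libraries 43783703, 44524187 and 42502027, so that 3 counts correspond to between 0.0642 and 0.0732 CPM (counts scaled to a common library size), and this floor covers counting error only. Of 8 markers of renal carcinoma cells, all were present in both groups, 3 were higher in the knockout and 2 lower: PAX8 averaged 215 CPM in the knockout and 238 CPM in the parental cells, and the hypoxia-induced CA9 and NDUFA4L2 averaged 96.9 and 471 CPM in the knockout, against 16.6 and 276 CPM in the parental cells. The 8 markers of blood, vessel, liver and other kidney cells reached at most 4 counts in any library. ATF4 transcript averaged 214 CPM in the knockout and 244 CPM in the parental cells, and its target NUPR1 averaged 8.09 and 73.5 CPM. The ATF4 log2 fold change, knockout over parental, was -0.19, and the median of its 50 nearest tested genes on chromosome 22 was -0.25. Because this is RNA of whole cultures, fewer cells of a kind and less RNA per cell cannot be told apart.

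Of the 28 genes, 6 were higher in the knockout and 10 were lower at an adjusted p below 0.05 in edgeR's quasi-likelihood test, and 12 were not called. That is 21.4% of the set higher against 21.2% of all tested genes, and 35.7% lower against 20.8% of all tested genes. The median log2 fold change, knockout over parental, was -0.04 in the set and 0.01 over all tested genes. In 9 of the genes every knockout sample lay above every parental sample and in 10 every one lay below, where 25.3% and 24.3% of all tested genes did so. The mevalonate arm held 3 of the 6 higher calls and 1 lower call, the squalene arm held no call, and the sterol arm held 7 of the 10 lower calls, 5 of them on chromosomes 11 and X, where many other genes were lower too. No test compared the arms.

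**Figure D1:**
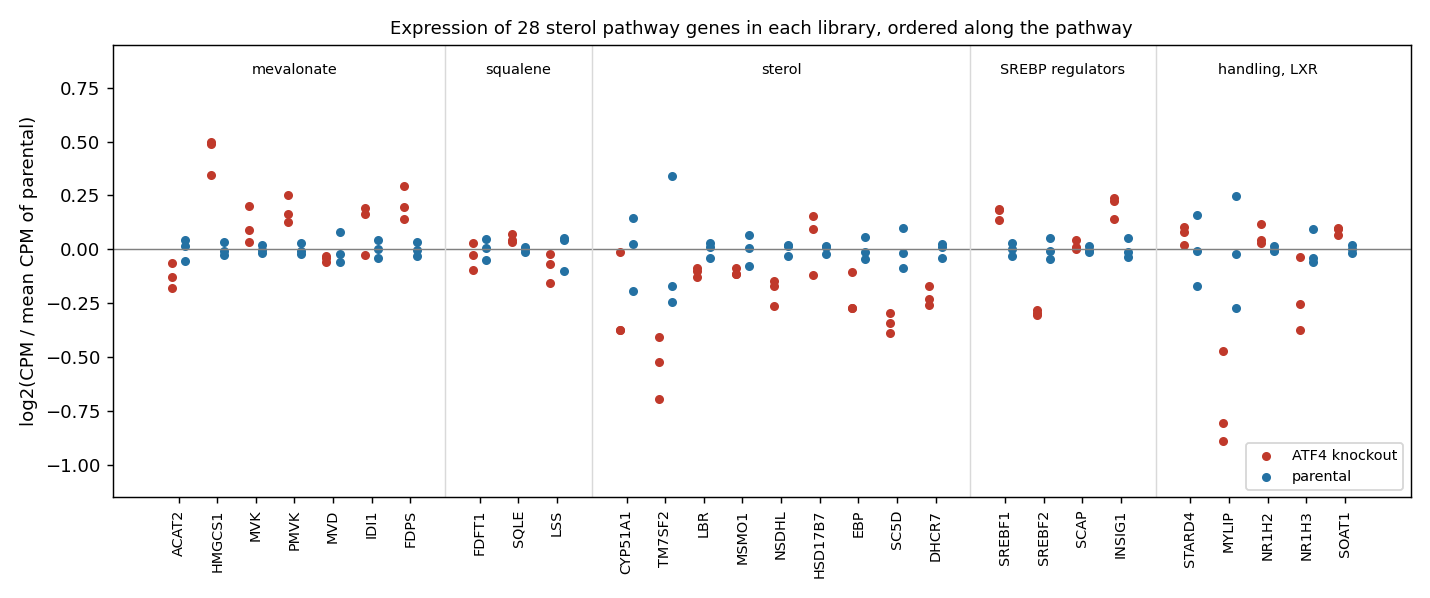
Log2 of the CPM of each sample over the mean CPM of the parental samples (vertical axis) for the 28 genes (horizontal axis, grouped by role), with 1 point per sample and ATF4 knockout samples left of parental samples. HMGCS1 lies wholly above its parental samples in the knockout, at 36.3 to 40.5 CPM, while SC5D and SREBF2 lie wholly below theirs.

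In the mevalonate arm, 3 of 7 genes were higher and 1 was lower, with a median log2 fold change of 0.11. HMGCS1, which condenses acetoacetyl-CoA and acetyl-CoA to HMG-CoA (ENSG00000112972, GRCh38 chromosome 5, 43289395 to 43313512), had 36.3, 40.5 and 40.2 CPM in the knockout samples, against 28.1, 29.3 and 28.5 CPM in the parental samples. The groups did not overlap, and the means were 39.0 ± 2.33 and 28.6 ± 0.610 CPM (SD, n = 3 each), a 1.36-fold difference (log2 fold change 0.45, SE 0.052, edgeR adjusted p = 2.19e-10). This was the largest rise among the 28 genes.

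FDPS, which makes farnesyl pyrophosphate, the branch point between sterols and other isoprenoids (ENSG00000160752, chromosome 1, 155308748 to 155320666), had 114, 106 and 103 CPM in the knockout samples, against 92.8, 95.2 and 91.0 CPM in the parental samples. Its means of 108 ± 5.74 and 93.0 ± 2.11 CPM (SD, n = 3 each) differed 1.16-fold without overlap (log2 fold change 0.21, SE 0.035, edgeR adjusted p = 1.78e-06). PMVK, the phosphomevalonate kinase (ENSG00000163344, chromosome 1, 154924734 to 154936991), was also wholly higher, at 50.7, 47.8 and 46.5 CPM in the knockout samples and 43.5, 42.4 and 42.0 CPM in the parental samples. The difference was 1.13-fold (log2 fold change 0.18, SE 0.046, edgeR adjusted p = 0.00103).

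The cytosolic thiolase ACAT2, which makes acetoacetyl-CoA, went the other way, at 41.8 ± 1.70 CPM in the knockout and 45.5 ± 1.59 CPM in the parental cells (SD, n = 3 each; log2 fold change -0.12, edgeR adjusted p = 0.0265). This call was lost without knockout replicate 2 (adjusted p = 0.0711), knockout replicate 3 (0.135), parental replicate 2 (0.0737) or parental replicate 3 (0.110) in edgeR, and in DESeq2 with all samples (adjusted p = 0.0553). Total count scaling lost it too (edgeR adjusted p = 0.0829). Mevalonate kinase MVK, the decarboxylase MVD and the isomerase IDI1 were not called, with log2 fold changes of 0.11 (95% confidence interval -0.01 to 0.23), -0.04 (-0.15 to 0.07) and 0.11 (0.00 to 0.22). IDI1 passed the test without knockout replicate 3 (log2 fold change 0.17, edgeR adjusted p = 0.0103).

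None of the 3 squalene arm genes was called higher or lower by edgeR, DESeq2 or limma-voom, and 0 had an unadjusted p under 0.05. Squalene synthase FDFT1 had a log2 fold change of -0.03 (95% confidence interval -0.11 to 0.05), squalene epoxidase SQLE 0.05 (-0.03 to 0.13) and lanosterol synthase LSS -0.08 (-0.17 to 0.01). LSS passed the test without parental replicate 3 (log2 fold change -0.13, edgeR adjusted p = 0.0232).

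In the sterol arm, 7 of 9 genes were lower in the knockout, none was higher by edgeR, DESeq2 or limma-voom, and 0 had an unadjusted p under 0.05 in that direction. The median log2 fold change was -0.22, and DESeq2 and limma-voom each called 6 of the 9 lower. SC5D, the sterol desaturase that makes 7-dehydrocholesterol (ENSG00000109929, chromosome 11, 121292453 to 121308694), had 31.8, 34.0 and 32.8 CPM in the knockout samples, against 44.6, 41.1 and 39.2 CPM in the parental samples. Its groups did not overlap, and the means of 32.9 ± 1.07 and 41.7 ± 2.73 CPM (SD, n = 3 each) gave a log2 fold change of -0.34 (SE 0.051, edgeR adjusted p = 1.29e-07). DHCR7, which reduces 7-dehydrocholesterol to cholesterol (ENSG00000172893, chromosome 11, 71428193 to 71452868), was likewise wholly lower, at 66.5, 69.2 and 65.3 CPM in the knockout samples and 79.4, 75.9 and 78.6 CPM in the parental samples (log2 fold change -0.22, SE 0.038, edgeR adjusted p = 2.78e-06).

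NSDHL, a dehydrogenase that takes part in removing the C4 methyl groups (ENSG00000147383, chromosome X, 152830967 to 152869729), had 59.3, 58.4 and 54.8 CPM in the knockout samples and 64.2, 66.3 and 66.6 CPM in the parental samples (log2 fold change -0.19, SE 0.040, edgeR adjusted p = 7.71e-05). LBR, a sterol reductase of the inner nuclear membrane that also binds lamin B (ENSG00000143815, chromosome 1, 225401502 to 225428925), had 119, 118 and 116 CPM in the knockout samples and 127, 123 and 129 CPM in the parental samples (log2 fold change -0.10, SE 0.031, edgeR adjusted p = 0.00532). Neither gene's groups overlapped. The other reductase of that step, TM7SF2 (ENSG00000149809, chromosome 11, 65111845 to 65116384), had a larger but noisier difference, with 3.96, 3.25 and 3.66 CPM in the knockout samples and 4.67, 6.66 and 4.44 CPM in the parental samples (log2 fold change -0.54, SE 0.137, edgeR adjusted p = 0.00115). Without parental replicate 2 it was -0.33 (edgeR adjusted p = 0.0653), and TM7SF2 shares exon sequence on the same strand with VPS51, so its reads are uncertain.

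The C4 methyl oxidase MSMO1 had a log2 fold change of -0.11 (edgeR adjusted p = 0.0485) and the isomerase EBP one of -0.22 (edgeR adjusted p = 0.0169). Both sat near the threshold: the MSMO1 call was lost without any 1 of 5 samples, knockout replicates 1, 2 and 3 (edgeR adjusted p = 0.0524, 0.113 and 0.0998) and parental replicates 1 and 2 (0.269 and 0.106), under the replicate block (-0.10, edgeR adjusted p = 0.0522) and in DESeq2 (adjusted p = 0.0867) and limma-voom (0.0519). The MSMO1 call was also lost with total count scaling (edgeR adjusted p = 0.147) and without the low-count filter (0.0974). The EBP call was lost without knockout replicate 2 (0.0825), knockout replicate 3 (0.0732) or parental replicate 3 (0.0659) in edgeR. Lanosterol demethylase CYP51A1 (-0.25, 95% confidence interval -0.55 to 0.05) and HSD17B7 (0.05, -0.19 to 0.29), the ketosteroid reductase, were not called. CYP51A1 overlaps read-through genes on its own strand and its low level, 2.64 to 3.80 CPM over the 6 samples, is therefore uncertain.

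The regulators of the axis were split. SREBF2, which encodes SREBP2 (ENSG00000198911, chromosome 22, 41833079 to 41907308), had 121, 120 and 122 CPM in the knockout samples, against 148, 154 and 144 CPM in the parental samples. With means of 121 ± 0.867 and 149 ± 5.20 CPM (SD, n = 3 each) and no overlap, its log2 fold change of -0.29 (SE 0.031) had the smallest adjusted p of the 28 genes (edgeR, 1.26e-11). SREBF1, which encodes SREBP1, the relative that favours fatty acid genes (ENSG00000072310, chromosome 17, 17810399 to 17837002), was wholly higher, at 41.1, 42.5 and 42.6 CPM in the knockout samples and 38.2, 37.5 and 36.6 CPM in the parental samples (log2 fold change 0.17, SE 0.047, edgeR adjusted p = 0.00252).

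INSIG1, the SCAP anchor and itself an SREBP target (ENSG00000186480, chromosome 7, 155297776 to 155310235), was higher too, at 36.5, 36.8 and 34.4 CPM in the knockout samples and 30.9, 30.4 and 32.4 CPM in the parental samples (log2 fold change 0.20, SE 0.051, edgeR adjusted p = 0.00098). Its groups did not overlap. SCAP had 77.8, 76.1 and 75.5 CPM in the knockout samples and 75.3, 76.2 and 74.9 CPM in the parental samples, which overlap, and its log2 fold change of 0.02 had a 95% confidence interval of -0.05 to 0.09.

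Parts of the promoters of 4 genes with large or well-separated differences are shown. The genes and the ends of each stretch were picked by hand, and other genes with such differences, such as SC5D, are not shown. Matches outside a stretch are left out, such as a CCAAT box of FDPS at -51 to -47 from the start. Each stretch is RefSeq sequence of GRCh38.p14, written 5′ to 3′ on the gene's strand, and the capitals mark a sterol element (TCACNCCAC) or a CCAAT box, which reads ATTGG on the opposite strand. The stretches lie at chr22:41832965-41833010 (plus strand), chr5:43313508-43313577 (minus strand), chr1:155308684-155308748 (plus strand) and chr6:16128971-16129026 (plus strand).
SREBF2: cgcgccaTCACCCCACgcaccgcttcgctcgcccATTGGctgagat
HMGCS1: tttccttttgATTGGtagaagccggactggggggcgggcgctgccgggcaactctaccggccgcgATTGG
FDPS: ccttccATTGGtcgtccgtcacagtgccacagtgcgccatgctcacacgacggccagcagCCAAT
MYLIP: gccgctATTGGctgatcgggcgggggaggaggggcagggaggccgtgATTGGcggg

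Promoter windows of 250 bases before to 50 bases after the start were matched for 25 of the 28 genes and searched on both strands. TCACNCCAC, the only form of the sterol element searched, was in 1 of the 25, SREBF2, and in 1.39% of 27303 genes. Its absence therefore does not show that a promoter lacks a sterol element of another form. CCAAT was in 19 of the 25 (76.0%) and in 39.7% of all genes, and those 19 held 4 genes called higher, 8 called lower and 7 not called. TGATGCAA, a form of the element bound by ATF4 with C/EBP partners, was in 0 of the 25 and in 1.08% of all genes, and the looser TGATGNAA, which includes it, was in 0 of the 25 and in 4.46%. The 27303 genes were not limited to those with enough reads here, whereas the 25 were all tested, so the shares are not of like genes. These matches describe the letters of the windows only.

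Among the genes of sterol handling and the LXR receptors, 1 of 5 was higher and 1 was lower. MYLIP, an LXR-induced ubiquitin ligase that removes lipoprotein receptors (ENSG00000007944, chromosome 6, 16129125 to 16148248), had 2.21, 2.34 and 2.96 CPM in the knockout samples, against 4.88, 4.05 and 3.40 CPM in the parental samples. The groups did not overlap, and the means of 2.51 ± 0.399 and 4.11 ± 0.742 CPM (SD, n = 3 each) gave the largest drop of the 28 genes (log2 fold change -0.71, SE 0.151, edgeR adjusted p = 0.000109). It rests on few reads, 91, 109 and 140 counts in the knockout samples and 212, 178 and 143 counts in the parental samples.

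SOAT1, which esterifies cholesterol for storage, had 180 ± 2.26 CPM in the knockout and 170 ± 2.14 CPM in the parental cells (SD, n = 3 each; log2 fold change 0.09, edgeR adjusted p = 0.0128). Without knockout replicate 1 (edgeR adjusted p = 0.0563) or parental replicate 2 (0.0573) it was not called. The LXR genes NR1H2 (log2 fold change 0.06, 95% confidence interval -0.01 to 0.13) and NR1H3 (-0.22, -0.41 to -0.03) and the sterol carrier STARD4 (0.07, -0.11 to 0.25) were not called. NR1H3 passed the test without knockout replicate 1 (-0.32, edgeR adjusted p = 0.0123).

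Many of the lower genes sat on chromosomes where other genes were lower too. Leaving the 28 genes out, 60.6% of the tested genes on chromosome 22 were lower in the knockout, 58.0% on chromosome X, 45.8% on chromosome 11, 45.1% on chromosome 21 and 33.4% on chromosome 6, against 20.8% of all tested genes. Of the 7 lower genes of the sterol arm, 5 were on chromosome 11 or X (SC5D, DHCR7, TM7SF2, NSDHL and EBP), and LBR and MSMO1 were elsewhere. LSS, the only gene of the set on chromosome 21, was not called. The median log2 fold change of its 33 neighbouring tested genes was 0.21, against -0.219 over the other tested genes of chromosome 21. On chromosomes 11, 22 and X, 6 of 7 genes of the set were lower, and elsewhere 4 of 21 were. These chromosomes were not set apart by a fixed share. Chromosome 21, with nearly the share of chromosome 11, and chromosome 6 count as elsewhere. The lower genes elsewhere include ACAT2 and MYLIP on chromosome 6. No share over all tested genes was computed for the pooled groups. Of the higher genes, FDPS, PMVK and SOAT1 were on chromosome 1, where 28.2% of the other tested genes were higher. SREBF1 was on chromosome 17 (32.1% higher), HMGCS1 on chromosome 5 (23.6%) and INSIG1 on chromosome 7 (14.5%), against 21.2% of all tested genes. The 50 neighbouring tested genes of HMGCS1 had a median log2 fold change of 0.16, against 0.01 over the other tested genes of chromosome 5. The part of the neighbouring genes in these values was not tested beyond the fit described next.

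When the median log2 fold change of up to 25 of the nearest tested genes on each side was taken off every gene, 4 of the 28 were higher (18.0% of all tested genes were) and 6 were lower (18.5% of all tested genes were). HMGCS1 was still higher (log2 fold change 0.29, edgeR adjusted p = 8.52e-06), as were INSIG1 (0.22, 0.000357), SREBF1 (0.14, 0.0176) and FDPS (0.09, 0.0330). SC5D (-0.17, 0.00511), TM7SF2 (-0.38, 0.0243), LBR (-0.15, 0.000138), MSMO1 (-0.11, 0.0369) and MYLIP (-0.57, 0.00201) were still lower, and LSS was lower at -0.29 (5.84e-07). Near a chromosome end there are fewer neighbours: LSS had 33, IDI1 30 and INSIG1 41, so that most of theirs lay to 1 side. By arm, 2 of 7 mevalonate genes were higher, 1 of 3 squalene genes was lower and 4 of 9 sterol genes were lower in this fit.

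SREBF2 was no longer called, at -0.06 (edgeR adjusted p = 0.141) beside a neighbour median of -0.24. DHCR7 (0.0029, adjusted p = 0.963), NSDHL (-0.0019, 0.978), EBP (0.014, 0.910), PMVK (0.08, 0.154), ACAT2 (-0.06, 0.384) and SOAT1 (0.05) also lost their edgeR calls. Of the 11 genes of the set lower in either fit, those that were lower in both were SC5D, TM7SF2, LBR, MSMO1 and MYLIP.

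**Figure D2:**
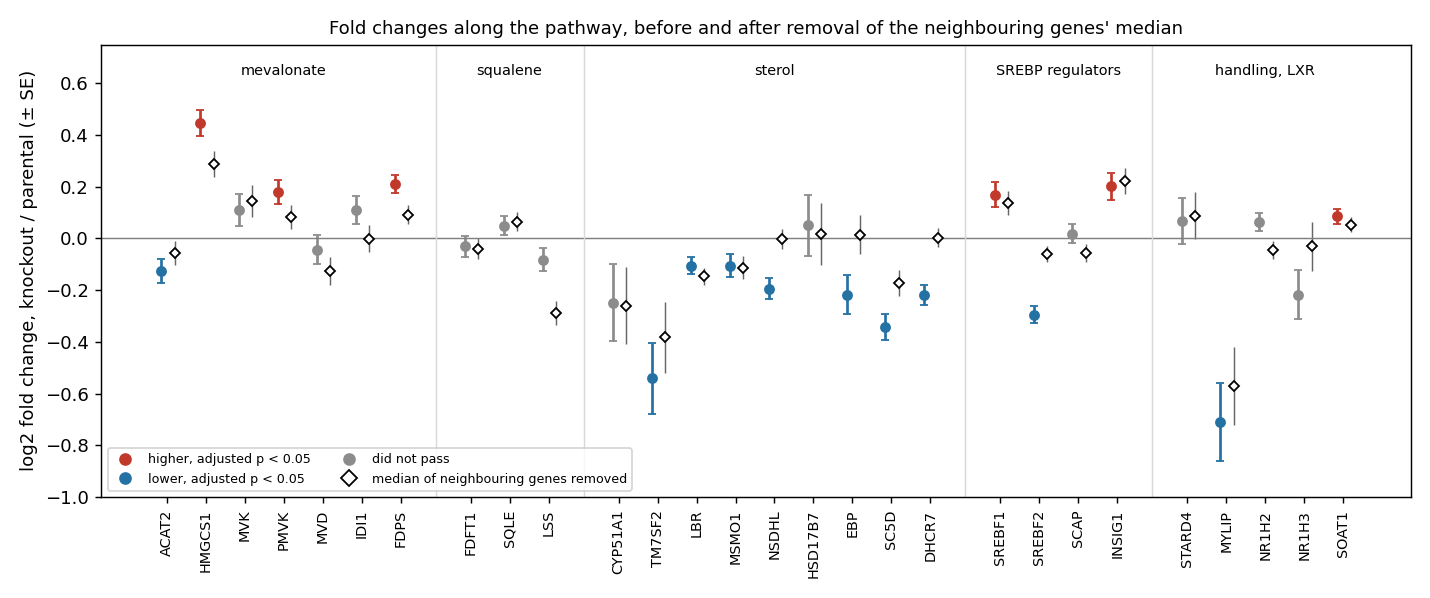
Log2 fold change, knockout over parental, of each of the 28 genes in order of role (filled circles, coloured by call) and the same with the median of the neighbouring genes removed (open diamonds), each with its SE. HMGCS1 stands highest in both, at 0.45 and 0.29, and the SREBF2 value of -0.29 is -0.06 once the neighbour median is removed.

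**Figure D3:**
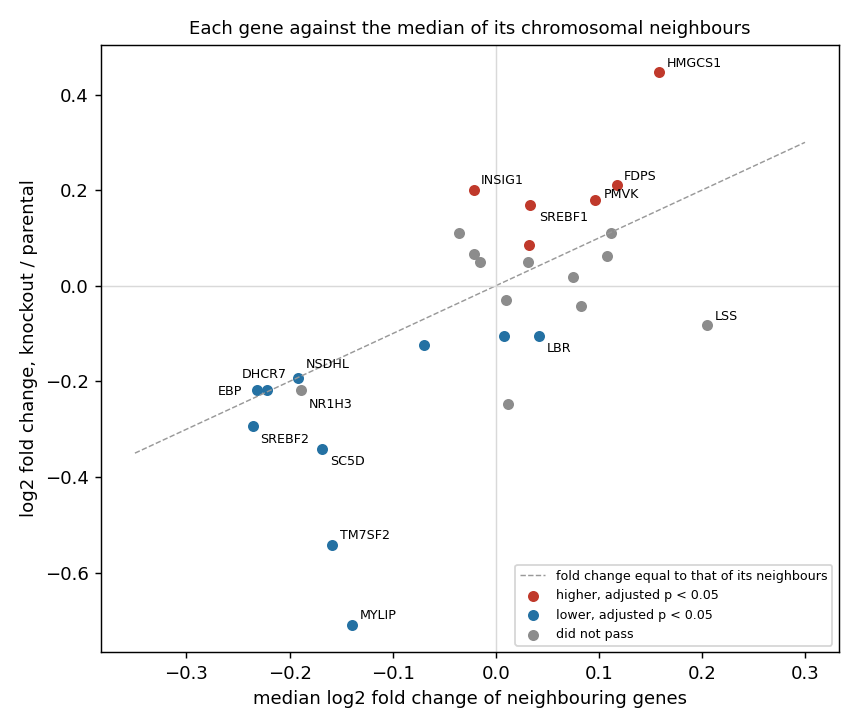
Log2 fold change of each of the 28 genes (vertical axis) against the median of up to 25 nearest tested genes on each side (horizontal axis), with the dashed line where both are equal. NSDHL, EBP and DHCR7 lie next to that line, whereas HMGCS1, at 0.45 beside a neighbour median of 0.16, lies above.

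The mean log2 level of the genes of each arm, centred on all samples, did not overlap between the groups in the mevalonate and sterol arms. The same held for the regulators, the handling and LXR genes and 3 of the 5 related lists. Of single tested genes, 25.3% lay wholly above and 24.3% wholly below, and no such share was computed for means of other genes. The neighbour median was not removed from these means. Its removal took the median log2 fold change of the sterol arm from -0.22 to -0.11. Single genes weigh on the means, such as HMGCS1 (0.45) in the mevalonate arm and TM7SF2 (-0.54), with uncertain reads, in the sterol arm. The mevalonate value was 0.089, 0.084 and 0.017 in the knockout samples and -0.081, -0.045 and -0.064 in the parental samples. The sterol value was -0.066, -0.116 and -0.132 in the knockout samples and 0.121, 0.117 and 0.077 in the parental samples. The squalene value overlapped between the groups, at 0.038, -0.009 and -0.059 in the knockout and 0.003, 0.030 and -0.003 in the parental samples.

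**Figure D4:**
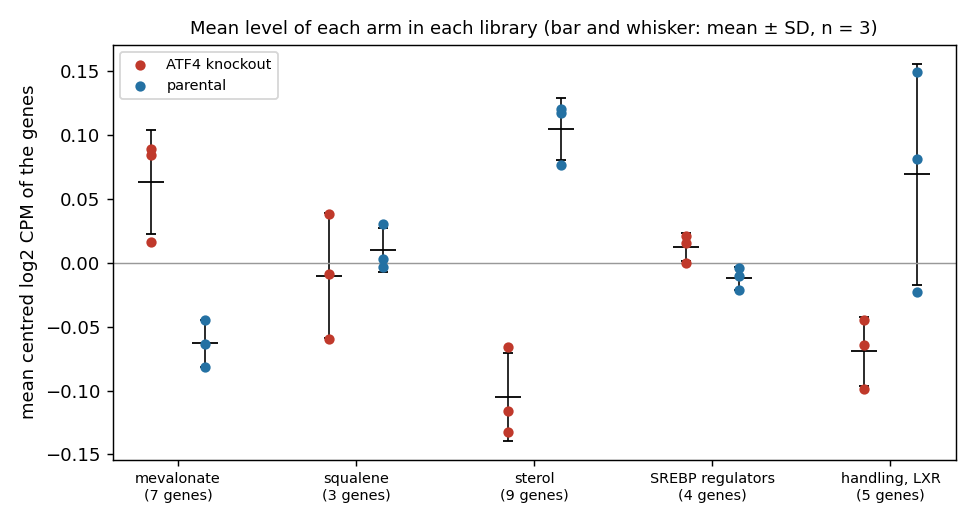
Mean centred log2 CPM of the genes of each arm in each sample, ATF4 knockout samples left of parental samples. The mevalonate values lie between 0.017 and 0.089 in the knockout and below 0 in the parental samples, and the sterol values lie the other way round.

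Genes around the set were mixed in direction. Over all tested genes 21.2% were higher and 20.8% lower, and with the neighbour median removed 18.0% and 18.5% were. Of 13 tested genes of the isoprenoid branches 2 were higher (15.4%), the methyltransferase ICMT (log2 fold change 0.34, edgeR adjusted p = 7.66e-13) and COQ2 of ubiquinone synthesis (0.37, 5.50e-05). None was lower by edgeR, DESeq2 or limma-voom, with 0 at an unadjusted p under 0.05 in that direction. With the neighbour median removed, 4 were higher and 1 was lower. Of 13 genes of SREBP processing and sterol sensing 6 were higher (46.2%) and 5 lower (38.5%), with log2 fold changes between -0.40 and 0.44. Of these genes 3 were lower without knockout replicate 2, knockout replicate 3 or parental replicate 2, or with the neighbour median removed. MBTPS2, the site-2 protease that releases SREBPs, was lower on chromosome X (-0.40, edgeR adjusted p = 1.63e-12), and still lower with its neighbour median removed (-0.13, 0.00541). INSIG2, which encodes an INSIG protein, was higher (0.44, edgeR adjusted p = 2.56e-12), and still higher with its neighbour median removed (0.40, 7.48e-11).

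Of 15 genes of the fatty acid arm served by SREBP1, 5 were higher and 5 were lower (33.3% each), with log2 fold changes between -0.96 and 0.49. Of 20 tested genes of sterol transport and storage 5 were higher (25%) and 6 lower (30%), with log2 fold changes between -0.55 and 0.89. The lower ones included the oxysterol-binding protein OSBP (-0.29, edgeR adjusted p = 4.23e-10) and the lysosomal sterol carrier NPC2 (-0.39, 6.67e-16). Among the higher ones was GRAMD1C (0.89, edgeR adjusted p = 0.000321), at means of 2.15 CPM in the knockout and 1.15 CPM in the parental cells. Of 6 tested LXR partners and targets 1 was higher (16.7%), the corepressor NCOR1 (0.15, edgeR adjusted p = 5.33e-05). Lower were 2 (33.3%), the receptors RXRA (-0.17, edgeR adjusted p = 0.000400) and RXRB (-0.14, 0.00448). Without parental replicate 3, 2 of the 6 were higher, and with the neighbour median removed 3 were.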

How the data were processed

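RNA of 3 ATF4 knockout and 3 parental RCC4 samples was made into stranded poly(A) libraries. The authors deposited raw counts per gene. The submitters' processing notes name bcl2fastq, cutadapt, STAR, HTSeq and GRCh38, with version 2.20 for bcl2fastq. Annotation release, strand setting and remaining versions: not given in the sources used here. With HTSeq's usual setting, reads that fit more than 1 gene are dropped, and opposite-strand overlaps (12 of the 28 genes) matter only if strand was not used. The genes IDI1, FDPS, CYP51A1 and HSD17B7 have named pseudogene copies, so their reads may be split.

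Genes were named from a gene-name table (60370 of 60683 IDs) or GENCODE 29 (289), which also gave coordinates for 58496. Counts were filtered with filterByExpr, scaled by TMM and tested in edgeR 4.0.16 (R 4.3.3) with the robust quasi-likelihood F test, with Benjamini-Hochberg adjustment over all 15321 tested genes and a threshold of 0.05. CPM used TMM-scaled library sizes, and log2 CPM a prior count of 2. In a further fit the median log2 fold change of up to 25 tested genes on each side (fewer near a chromosome end), the set left out, entered as an offset; the error of that median is not in its SE. DESeq2 1.42.0, limma-voom (limma 3.58.1), other scalings and filters, a replicate block and leaving out each sample were the alternatives. The method was tested on simulated data. Between replicates of a group the chi-square per degree of freedom was 3.59 to 5.80, and no libraries were identical.

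Genes named with values by sample were the 12 with the smallest p-values among the 28, and all 4 regulators of the axis. From related lists only a few genes are named, and the rest are given as counts and ranges. The 28 genes and all lists were chosen with earlier results of these data known.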

Additional observations from a re-analysis of the deposited data

How the results depend on the processing

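Over 14 alternative settings and the 28 genes, 350 values kept their sign and their call. With the sign kept, 27 lost a call and 7 gained one. The sign changed in 8, 5 of them with the neighbour median removed and 3 without 1 sample. Among these 8, DHCR7 and EBP also lost their calls, with the neighbour median removed. The same call was found in every setting tried for 15 genes. With the neighbour median removed 6 genes were lower instead of 10, and the sign turned for DHCR7 (0.0029) and EBP (0.014), which had been called, and for SCAP (-0.06), NR1H2 (-0.05) and IDI1 (-0.00066), which had not; the cause was not tested. With total count scaling 8 of the genes were higher and 8 lower, and over all 15321 tested genes 3807 were higher and 2780 lower. IDI1 (0.14) and NR1H2 (0.09) were called higher in that fit, while ACAT2 and MSMO1 lost their lower calls. With the strict filter NR1H3 (-0.22) was called lower. Leaving out each sample gave between 5 and 7 genes higher and between 7 and 10 lower. Over all genes, leaving out each sample gave 5594 to 6102 calls. With the replicate block, 6 of the genes were higher and 9 lower, and all genes gave 6405 calls. The same-numbered samples did not deviate together (r = -0.028, 0.0063 and -0.016), and not every sample correlated best with its own number. So few samples cannot show whether those of the same number shared a culture or a batch. Genes of low level, such as MYLIP and TM7SF2, have the widest errors. With 3 samples a group, small differences in the squalene arm were not resolved.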
